A study of Rattus norvegicus with 16 samples.

Results

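The thalamus markers examined here were 8 genes, Shox2, Vav3, Synpo2, Ntng1, Lef1, Slc17a6, Tcf7l2 and Prkcd, read on arrays of the rat diencephalon. Their members were all probe sets that the platform annotation assigns to one of these symbols, which gave 18 of the 31042 probe sets other than controls, and 8 of the 14217 genes named on the array. Tcf7l2 had 5 probe sets, Synpo2 4, Shox2 3, Lef1 2, and the other 4 genes 1 each. The measurements came from 16 male Sprague-Dawley rats, each with its own Affymetrix expression array, in 4 groups of 4. ZD rats were zinc-deficient, on 0.6 mg zinc per kg of diet for 10 days from 5 weeks of age, and PF rats were their pair-fed controls on 30 mg zinc per kg of diet. ZR rats had the same 10 days of deficiency and then 6 days on the control diet, and ZRPF rats had 10 days of pair-feeding on the control diet before those 6 days, with a ration of 13 g in both groups. All rats had taken a salt preference test with 300 mM NaCl, and the submitters chose average rats by weight, plasma zinc and salt preference, so the spread given here is not that of all rats. They had also removed 1 ZRPF rat and 3 ZR rats on their salt preference.

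The thalamus relays sensory and motor information to the cortex, and most of its nuclei are built of glutamatergic projection neurons. In rodents these neurons are known for the transcription factors Tcf7l2, Lef1 and Shox2, for the vesicular glutamate transporter VGLUT2 encoded by Slc17a6, and for the adhesion protein netrin-G1 encoded by Ntng1 on their axons to the cortex. Tcf7l2 and Lef1 are partners of beta-catenin, the effector of Wnt signalling, and bind DNA around a short TCF/LEF core. The diencephalon also holds the hypothalamus, so a bulk sample mixes both regions with choroid plexus, vessels and meninges.

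In the RefSeq annotation of GRCr8, 5 of the genes lie on chromosome 2, Slc17a6 and Tcf7l2 on chromosome 1, and Prkcd on chromosome 16. Vav3 (chr2:199699861-200042344) and Ntng1 (chr2:200151979-200515031) are neighbours 110 kb apart, with 1 gene between them that does not code for protein. RefSeq promoters were at hand for 7 of the 8 genes. The 250 bases before the promoter's own start position, read on the gene's strand, were searched for the TCF/LEF core CTTTGA and its reverse complement TCAAAG, which are the letters that Tcf7l2 and Lef1 bind. For Vav3 and Prkcd this window lay inside the annotated span of the gene, and for Lef1 partly inside it. The core stood in 1 of these 7 windows, that of Slc17a6, against 13.9% of 33469 windows of the same length over all promoters. The GC content of the 7 windows ran from 44.8% to 77.6%. Of these, 3 windows are given as 5 prime to 3 prime sequence: Slc17a6 (chr1:110348197-110348446, plus strand) with the core in capitals 25 bases before the start, Synpo2 (chr2:214055845-214056094, minus strand) as the gene with the lowest p between ZD and PF, and Tcf7l2 (chr1:264791085-264791334, plus strand) as the gene with the lowest p between ZRPF and PF.
Slc17a6: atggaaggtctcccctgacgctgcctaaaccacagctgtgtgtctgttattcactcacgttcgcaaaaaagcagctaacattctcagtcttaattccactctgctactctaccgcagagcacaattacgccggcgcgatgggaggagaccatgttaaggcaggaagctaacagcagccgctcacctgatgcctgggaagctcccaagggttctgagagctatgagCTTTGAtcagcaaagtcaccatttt
Synpo2: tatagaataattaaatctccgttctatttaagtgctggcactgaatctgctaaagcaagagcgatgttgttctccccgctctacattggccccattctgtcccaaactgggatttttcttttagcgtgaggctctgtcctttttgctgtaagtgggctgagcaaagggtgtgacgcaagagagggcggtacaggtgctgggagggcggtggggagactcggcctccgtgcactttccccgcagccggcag
Tcf7l2: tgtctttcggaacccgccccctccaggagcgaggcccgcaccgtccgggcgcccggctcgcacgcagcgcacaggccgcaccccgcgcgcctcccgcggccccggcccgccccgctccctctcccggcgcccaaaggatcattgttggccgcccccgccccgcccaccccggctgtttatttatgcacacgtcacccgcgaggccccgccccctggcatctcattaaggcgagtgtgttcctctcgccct

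Signals are the authors' MAS5 intensities, taken as log2, so that a difference of 1 is a doubling. Signals of different probe sets depend on their probes, so their levels were not read as differences between transcripts. Levels served to select probe sets. A signal summed over a list of markers is weighted towards its brightest probe sets and serves only to set arrays side by side. Probe sets with a mean log2 signal of at least 7.35 (a signal of 163), the median over all probe sets, were tested, and 15 of the 18 passed this filter. Each of the 8 genes kept at least 1 probe set. Groups were compared with limma over all 15521 probe sets that passed, with Benjamini-Hochberg adjusted p and a threshold of 0.05, and the number of arrays limits the precision of each value. For counts over genes, a gene was represented by its probe set of highest mean signal. Array ZD 8 had the lowest hypothalamic and the highest meningeal marker levels of the 16, and results between ZD and PF are also given without it below.

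Between zinc-deficient and pair-fed rats none of the 15 probe sets passed the test, and 0% of the 15521 probe sets passed. The signals were lower in ZD rats in 12 of the 15 probe sets and in 8 of 8 genes, against 47.5% of all probe sets tested. The median difference over the 8 genes was -0.19 on the log2 scale, against 0.01 over all probe sets tested. At an unadjusted p under 0.05, 5 of the 15 probe sets were lower and 0 were higher, while 3.83% of all probe sets were lower and 4.03% higher at that limit. These 5 belonged to Synpo2 (2 probe sets), Shox2, Vav3 and Lef1. In 2 of the 15, every ZD array lay below every PF array, against 1.7% of all probe sets, and in 0 of the 15 every ZD array lay above, against 2.49%. In bulk tissue, fewer thalamic cells in a sample and less RNA per cell cannot be told apart. Without ZD 8, 8 probe sets were lower at an unadjusted p under 0.05, and without ZD 2 or without PF 6 there were 2, so the count rests on single arrays. The members were chosen with earlier results of these data known, so the gap to the background shares is not an independent result. They are also not independent of each other, since they varied together from rat to rat within groups. The 8 genes were lower in ZD rats whichever array was left out, with a median of -0.14 without ZD 2 and -0.22 without ZD 8.

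**Figure D1:**
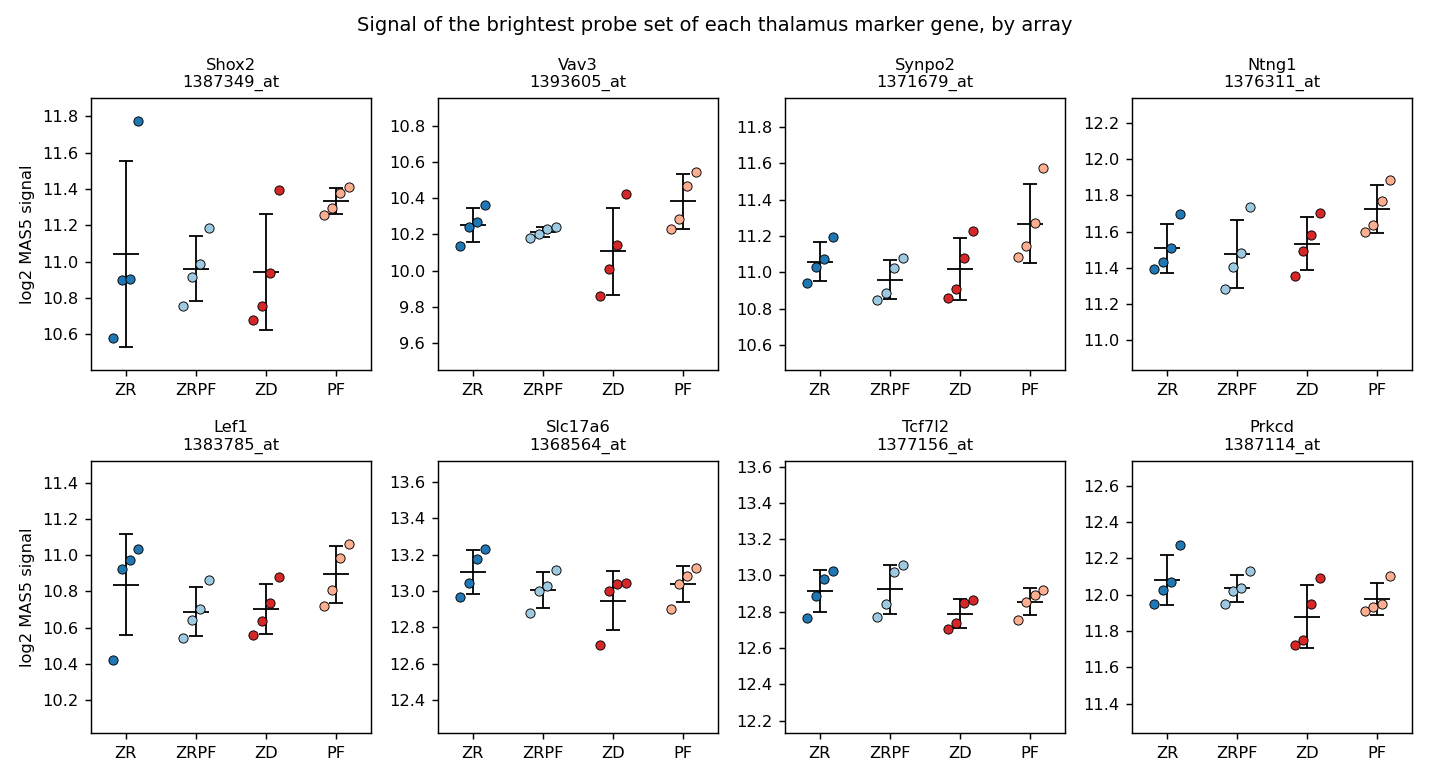
Each panel plots the log2 MAS5 signal of 1 gene's probe set of highest signal, with a point per array, the group mean as a long bar and the SD as caps (n = 4). The ZD means lie below the PF means in all 8 panels, by -0.07 for Tcf7l2 to -0.39 for Shox2, and the points overlap in each of them.

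Among the transcription factors, Shox2, a homeodomain protein known in mice from thalamic neurons and from the pacemaker of the heart, had 2 tested probe sets. Probe set 1368825_at had log2 signals of 8.85, 8.70, 8.45 and 8.48 in ZD rats 2, 3, 8 and 9, against 8.87, 9.19, 9.10 and 8.90 in PF rats 1, 2, 4 and 6. All ZD values lay below all PF values, with ZD 2 close to the lowest PF rat. The difference was -0.39 ± 0.14 (SE), a fold of 0.761, with an adjusted p of 0.494 in limma. Probe set 1387349_at gave a difference of the same size, -0.39 ± 0.19 (adjusted p = 0.634 in limma), over other values: 10.68, 10.76, 11.39 and 10.94 in ZD rats, against 11.38, 11.29, 11.26 and 11.41 in PF rats. Here ZD 8 was as high as the PF rats while the other 3 ZD rats were lower, and without ZD 8 the difference was -0.54. ZD 8 thus held the highest ZD value on this probe set and the lowest on 1368825_at. The deviations of both probe sets from their group means had a correlation of 0.08 over the 16 arrays.

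Lef1, a DNA-binding partner of beta-catenin, was lower in ZD rats on both of its probe sets without passing. On 1370138_at the log2 signals were 8.82, 9.10, 9.01 and 8.82 in ZD rats, against 8.91, 9.31, 9.32 and 9.53 in PF rats. PF 1 lay inside the ZD range and the other 3 PF rats above it. The difference was -0.33 ± 0.14 (SE; adjusted p = 0.581 in limma), and without PF 1 it was -0.45. The difference on 1383785_at was -0.19 ± 0.12, from 10.56, 10.88, 10.74 and 10.64 in ZD rats, against 10.98, 11.06, 10.81 and 10.72 in PF rats.

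Tcf7l2, the related factor that marks thalamic neurons after their last division in mice, had 5 tested probe sets that lay on either side of 0 between ZD and PF. On 1377156_at the log2 signals were 12.71, 12.87, 12.85 and 12.74 in ZD rats, against 12.92, 12.86, 12.75 and 12.89 in PF rats. The 2 groups covered nearly the same range, with a difference of -0.07 ± 0.07 and a 95% interval of -0.22 to 0.09. The other 4 differed by -0.16 ± 0.11 (1378048_at), 0.04 ± 0.11 (1392592_at), 0.09 ± 0.10 (1379815_at) and 0.08 ± 0.24 (1394497_at). Probe set 1394497_at split the ZD rats, with 8.03 and 8.12 in ZD 2 and 3 and 6.90 and 6.80 in ZD 8 and 9, around PF values of 7.60, 7.21, 7.37 and 7.33.

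Of the signalling and cytoskeletal members, Synpo2, an actin-binding protein also called myopodin, had the lowest p of the 15 probe sets. On 1384160_at the log2 signals were 7.61, 7.92, 8.08 and 8.28 in ZD rats, against 8.44, 8.43, 8.40 and 8.59 in PF rats. Every ZD rat lay below every PF rat, and the ZD rats were spread more widely (SD 0.28 in ZD and 0.08 in PF, n = 4 each). The difference was -0.50 ± 0.13 (SE), a fold of 0.708, with an unadjusted limma p of 0.00108 and an adjusted p of 0.265. The adjusted p ranged from 0.143 without ZD 9 to 0.572 without ZD 2 when single arrays were left out. On 1371679_at the log2 signals were 10.91, 10.86, 11.08 and 11.23 in ZD rats, against 11.08, 11.27, 11.15 and 11.57 in PF rats. Here the groups overlapped, the difference was -0.25 ± 0.10 (adjusted p = 0.569 in limma), and without PF 6, the highest array, it was -0.15.

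Vav3, an exchange factor that activates Rac GTPases, had log2 signals of 9.86, 10.01, 10.42 and 10.14 in ZD rats, against 10.23, 10.47, 10.29 and 10.55 in PF rats. The difference was -0.27 ± 0.10 (SE), a fold of 0.827, with an adjusted p of 0.503 in limma. ZD 8 alone among the ZD rats lay within the PF range, and without it the difference was -0.38 (adjusted p = 0.153 in limma). Prkcd, the delta isoform of protein kinase C, which thalamic relay neurons of rodents express, had 11.72, 11.75, 11.95 and 12.10 in ZD rats, against 11.91, 11.95, 11.93 and 12.11 in PF rats. ZD 2 and ZD 3 lay below the PF rats and ZD 8 and ZD 9 among them, with a difference of -0.09 ± 0.08.

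Of the axonal and synaptic members, Ntng1 had 11.36, 11.49, 11.70 and 11.58 in ZD rats, against 11.77, 11.60, 11.64 and 11.89 in PF rats. The difference was -0.19 ± 0.10 (SE; adjusted p = 0.666 in limma), with ZD 8 again inside the PF range. Slc17a6 had 12.70, 13.04, 13.04 and 13.00 in ZD rats, against 13.08, 13.04, 12.90 and 13.13 in PF rats. Its difference of -0.09 ± 0.08 rested on ZD 2, without which it was -0.01, and the 95% interval was -0.26 to 0.08. VGLUT2 transcript thus differed between the groups by less than the spread between rats.

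**Figure D2:**
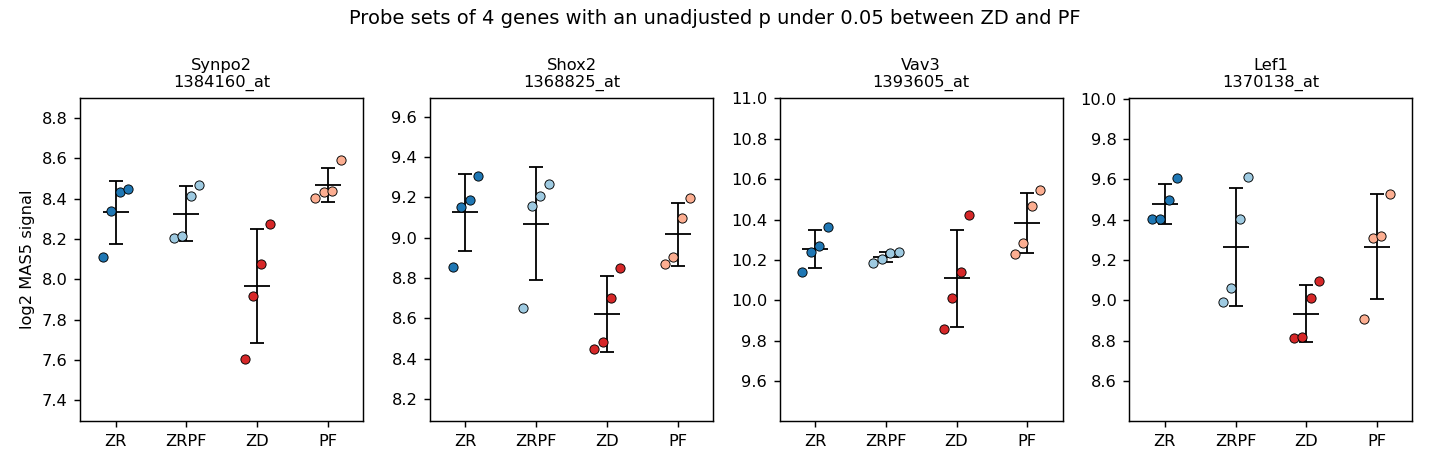
Log2 MAS5 signal per array for 4 probe sets, 1 per gene, with an unadjusted p under 0.05 between ZD and PF; bars give mean and SD (n = 4). All ZD points lie below all PF points for Synpo2 and Shox2, and the 2 groups overlap for Vav3 and Lef1. None passed after adjustment.

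After 6 days of recovery, the question was whether rats that had been deficient still differed from rats that had not. None of the 15 probe sets passed between ZR and ZRPF, where 0.00644% of all probe sets did. The signals were lower in ZR rats in 3 of 15 probe sets, against 51.7% of all. The median over the 8 genes was 0.06, against -0.01 over all probe sets tested. No member had groups without overlap, against 1.39% of all probe sets with ZR above ZRPF and 1.58% with ZR below. None had an unadjusted p under 0.05, against 2.54% of all higher and 2.66% lower. The median rests on ZR 7, the ZR rat with the highest signals, since without it the median was -0.01 and 7 of 15 probe sets were lower.

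Lef1 had the largest difference in this comparison without passing. On 1370138_at the log2 signals were 9.61, 9.49, 9.40 and 9.41 in ZR rats 7, 10, 13 and 15, against 8.99, 9.06, 9.61 and 9.40 in ZRPF rats 2, 4, 5 and 6. The ZR rats lay close together at the upper end of the ZRPF range, and the difference was 0.21 ± 0.14 (SE; adjusted p = 0.940 in limma). On 1383785_at the difference was 0.15 ± 0.12. Slc17a6 had 13.18, 13.23, 13.04 and 12.96 in ZR rats, against 13.03, 13.12, 12.88 and 13.00 in ZRPF rats, a difference of 0.10 ± 0.08.

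The 3 probe sets of lowest p between ZD and PF had differences near 0 here. Synpo2 1384160_at had 8.43, 8.11, 8.45 and 8.34 in ZR rats, against 8.47, 8.21, 8.20 and 8.41 in ZRPF rats. The difference was 0.01 ± 0.13 with a 95% interval of -0.26 to 0.28. Shox2 1368825_at had 9.30, 9.15, 9.19 and 8.86 in ZR rats, against 9.27, 9.21, 8.65 and 9.16 in ZRPF rats, a difference of 0.06 ± 0.14. Vav3 had 10.37, 10.27, 10.24 and 10.14 in ZR rats, against 10.23, 10.18, 10.24 and 10.20 in ZRPF rats, a difference of 0.04 ± 0.10. The ZRPF rats of Vav3 lay close together, between 10.18 and 10.24. Shox2 1387349_at spread most among the ZR rats, with 11.78 in ZR 7 and 10.90, 10.90 and 10.58 in the other 3, against 10.75, 10.99, 10.91 and 11.19 in ZRPF rats. Its difference was 0.08 ± 0.19, and without ZR 7 it was -0.17.

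Whether the difference after recovery was unlike that after deficiency was tested as an interaction, ZR minus ZRPF less ZD minus PF. None of the 15 probe sets passed, nor did any of the 15521 (0%). The interaction was above 0 in 14 of the 15, and 53.1% of all probe sets were below 0. At an unadjusted p under 0.05, 5 of 15 were above 0 and 0 below it, against 3.34% and 3.27% of all in limma. These were Lef1 1370138_at (0.54 ± 0.19, SE), Synpo2 1384160_at (0.51 ± 0.18), Shox2 1368825_at (0.45 ± 0.19), Synpo2 1371679_at (0.35 ± 0.14) and Vav3 (0.31 ± 0.14), each with an adjusted p of 0.747 in limma. The same 5 probe sets were those lower at that limit between ZD and PF. The interaction contains that difference, so this count is not a separate result, and the choice of members limits it too. The median over the 8 genes was 0.27, against -0.01 over all, and it was 0.20 without ZD 2 or without ZR 7. No member was thus shown to differ otherwise after recovery than after deficiency.

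**Figure D3:**
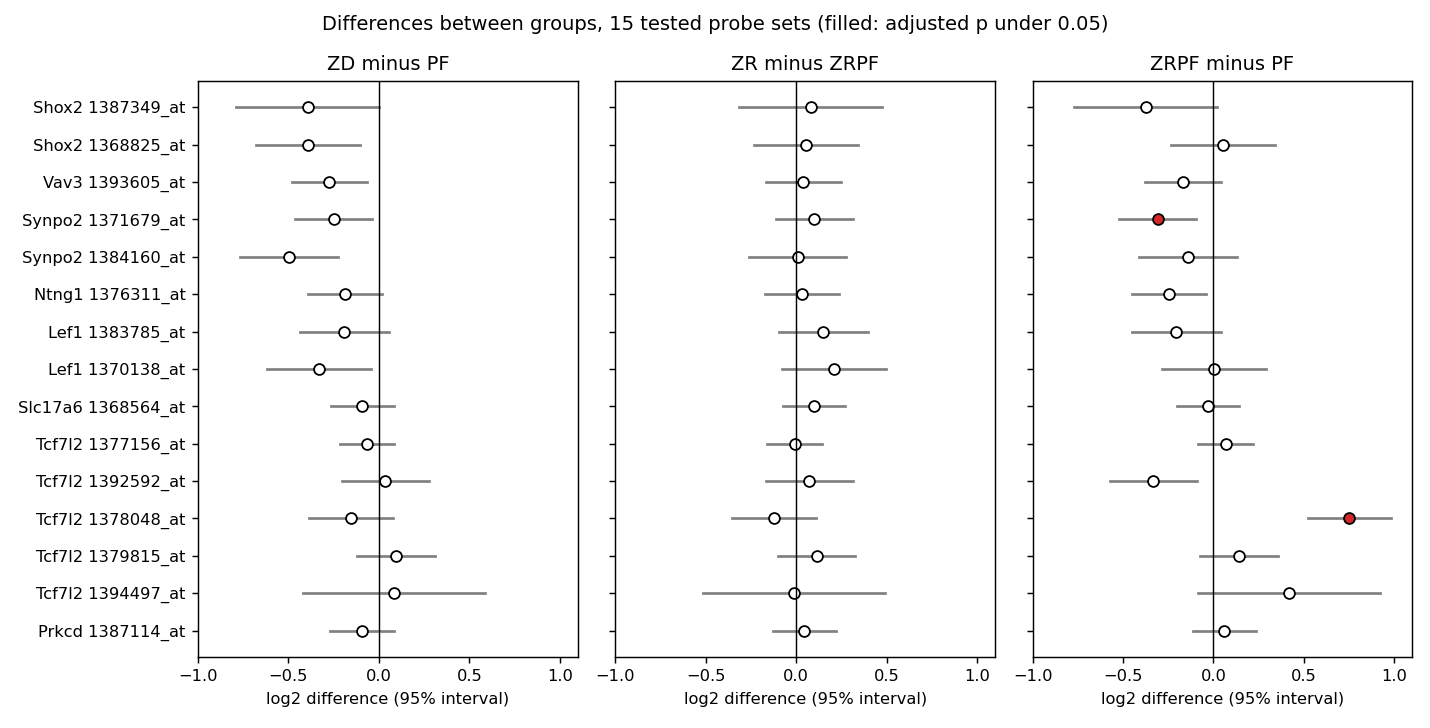
Differences in log2 signal with 95% intervals for the 15 tested probe sets, in 3 panels: ZD minus PF, ZR minus ZRPF, and ZRPF minus PF. Filled points passed adjusted p under 0.05: none in the first and second panels, Tcf7l2 1378048_at (0.75) and Synpo2 1371679_at (-0.31) in the third.

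The 2 pair-fed groups were compared to show how the markers stood after the longer experiment without any deficiency. Age, the days on a ration and the experiment cannot be told apart in this comparison, and it shares the PF rats with ZD against PF and the ZRPF rats with ZR against ZRPF. Here 15.7% of the 15521 probe sets passed, 9.5% higher and 6.15% lower in ZRPF. With each array centred on its own median, 31.2% of the calls were higher, against 60.7% without centring, so the split of directions depends on the scaling. Of the 15 member probe sets 1 rose and 1 fell in ZRPF rats, which is near the background share. The signals of 8 of the 15 were lower in ZRPF rats, against 51% of all probe sets. By gene, 6 of 8 were lower in ZRPF rats, with a median of -0.19, against -0.01 over all probe sets tested. This median is as large as that of ZD against PF (-0.19), and both are set against the same 4 PF rats. With each array centred on its median, 12 of the 15 probe sets and 8 of 8 genes were lower in ZRPF rats, with a median of -0.27.

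The probe set that rose was Tcf7l2 1378048_at. Its log2 signals were 9.62, 9.49, 9.38 and 9.66 in ZRPF rats, against 8.82, 8.77, 8.80 and 8.77 in PF rats. All 4 ZRPF rats lay above all 4 PF rats, as they did in 12% of all probe sets. The difference was 0.75 ± 0.11 (SE), a fold of 1.68, with an adjusted p of 0.000174 in limma, and it stayed between 0.71 and 0.80 with single arrays left out. The recovered rats stood near ZRPF, with 9.49, 9.39, 9.60 and 9.18 in ZR rats, and ZD rats near PF, with 8.42, 8.59, 8.94 and 8.58.

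None of the other Tcf7l2 probe sets passed as higher in ZRPF rats. On 1377156_at the difference was 0.07 ± 0.07 (SE), with a 95% interval of -0.08 to 0.22, from 13.06, 13.02, 12.77 and 12.84 in ZRPF rats, against the PF values given above. On 1392592_at it was -0.33 ± 0.11, just short of the threshold (adjusted p = 0.0565 in limma), with 9.64, 9.85, 9.42 and 9.44 in ZRPF rats, against 9.62, 10.09, 9.83 and 10.15 in PF rats. It passed when single arrays were left out in 2 of 8 cases. The 2 remaining ones stood at 0.14 ± 0.10 (1379815_at) and 0.42 ± 0.24 (1394497_at). The 95% interval of 1394497_at, -0.09 to 0.92, includes no difference as well as the 0.75 of 1378048_at. The level of Tcf7l2 as a gene therefore cannot be given a direction between ZRPF and PF, and which transcript forms each probe set reads is not given in the sources used here.

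**Figure D4:**
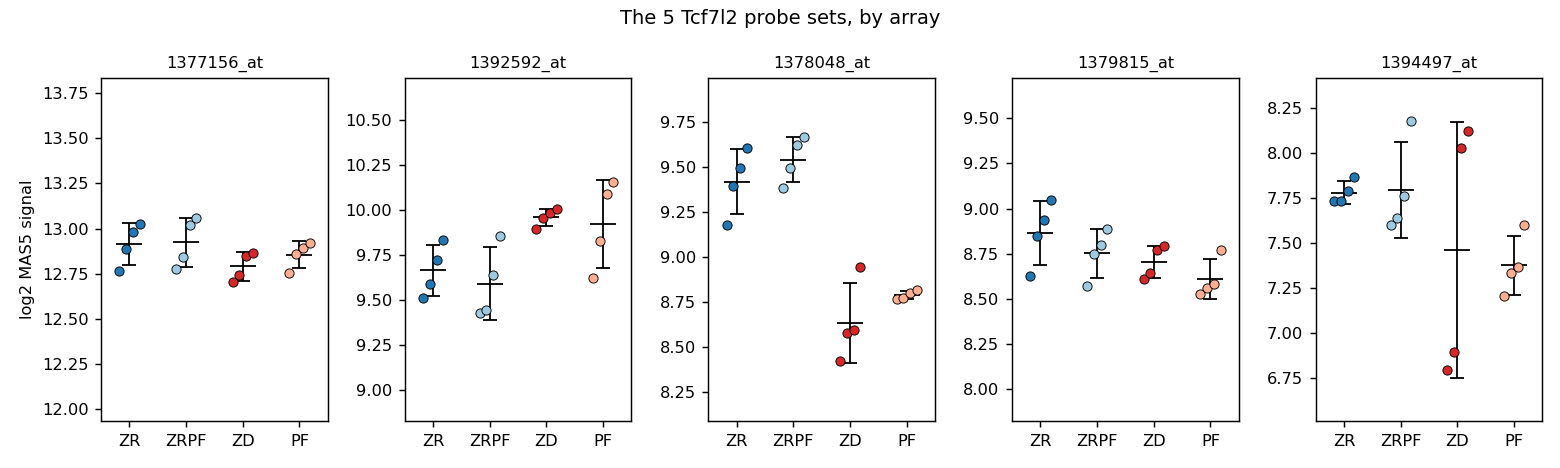
Log2 MAS5 signal per array for the 5 probe sets of Tcf7l2, with mean and SD (n = 4); all panels span the same log2 range. In 1378048_at the ZR and ZRPF points lie above the ZD and PF points, in 1392592_at the ZRPF mean is 0.33 below the PF mean, and in 1377156_at the ZRPF and PF means differ by 0.07.

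The probe set that fell was Synpo2 1371679_at, with 11.08, 10.85, 10.89 and 11.02 in ZRPF rats, against 11.08, 11.27, 11.15 and 11.57 in PF rats. The ranges met at 11.08 without overlapping, and 9.37% of all probe sets had ZRPF rats below PF rats without overlap. The difference was -0.31 ± 0.10 (SE), a fold of 0.807, with an adjusted p of 0.0462 in limma. It lost the threshold in 5 of 8 fits that left out 1 array, with -0.21 and an adjusted p of 0.153 without PF 6, and in the fit with a replicate block (-0.35, adjusted p = 0.0539). The other tested Synpo2 probe set stood at -0.14 ± 0.13.

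Shox2 1387349_at also had ZRPF and PF rats without overlap, with 10.75, 10.99, 10.91 and 11.19 in ZRPF rats, against 11.38, 11.29, 11.26 and 11.41 in PF rats. The difference was -0.38 ± 0.19 (SE), and it did not pass (adjusted p = 0.190 in limma). Shox2 1368825_at stood at 0.05 ± 0.14. Ntng1 had 11.48, 11.73, 11.29 and 11.41 in ZRPF rats, a difference from PF of -0.25 ± 0.10 (adjusted p = 0.0939 in limma). It passed without ZRPF 4, at -0.33 (adjusted p = 0.0241 in limma).

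The remaining differences between ZRPF and PF were -0.17 ± 0.10 (SE) for Vav3, -0.21 ± 0.12 and 0.00 ± 0.14 for the Lef1 probe sets 1383785_at and 1370138_at, -0.03 ± 0.08 for Slc17a6 and 0.06 ± 0.08 for Prkcd. In the last of these the signals were 12.13, 12.02, 11.95 and 12.04 in ZRPF rats.

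Over all 4 groups the order of the means differed from gene to gene. Slc17a6 averaged 12.95 ± 0.16 in ZD and 13.04 ± 0.10 in PF, and 13.10 ± 0.12 in ZR and 13.01 ± 0.10 in ZRPF (log2, SD, n = 4 each). Prkcd averaged 11.88 ± 0.18 in ZD and 11.97 ± 0.09 in PF, and 12.08 ± 0.14 in ZR and 12.04 ± 0.07 in ZRPF. For these 2 genes no neighbours in the order differed by more than the larger of their SDs. Vav3 averaged 10.11 ± 0.24 in ZD and 10.38 ± 0.15 in PF, and 10.25 ± 0.09 in ZR and 10.21 ± 0.03 in ZRPF. Ntng1 averaged 11.53 ± 0.15 in ZD and 11.72 ± 0.13 in PF, and 11.51 ± 0.14 in ZR and 11.48 ± 0.19 in ZRPF. In both, PF had the highest mean, and the ZR and ZRPF means lay within 1 SD of the ZD mean. Shox2 1387349_at averaged 10.94 ± 0.32 in ZD and 11.34 ± 0.07 in PF, and 11.04 ± 0.51 in ZR and 10.96 ± 0.18 in ZRPF. Synpo2 1371679_at averaged 11.02 ± 0.17 in ZD and 11.27 ± 0.22 in PF, and 11.06 ± 0.11 in ZR and 10.96 ± 0.11 in ZRPF. These 2 genes likewise had their highest mean in PF. Lef1 1383785_at averaged 10.70 ± 0.14 in ZD and 10.89 ± 0.16 in PF, and 10.84 ± 0.28 in ZR and 10.69 ± 0.13 in ZRPF. The means of Tcf7l2 1377156_at lay closest together, at 12.79 ± 0.08 in ZD and 12.86 ± 0.07 in PF, and 12.91 ± 0.11 in ZR and 12.92 ± 0.14 in ZRPF.

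The spread within groups differed between members. The pooled SD of log2 signal was 0.10 for Tcf7l2 1377156_at, 0.12 for Slc17a6 and 0.13 for Prkcd, against a median of 0.15 over all probe sets tested. It was 0.32 for Shox2 1387349_at, a spread that 94.7% of tested probe sets did not reach, and 0.39 for Tcf7l2 1394497_at.

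The 3 probe sets below the filter were not tested. Shox2 1375389_at had 6.14, 6.31, 5.78 and 5.78 in ZD rats, against 6.22, 6.47, 5.72 and 6.41 in PF rats. In the longer experiment it had 6.99, 6.95, 6.79 and 6.62 in ZR rats, against 6.68, 7.14, 6.59 and 6.74 in ZRPF rats. Its ZRPF rats all lay above its PF rats, opposite in direction to 1387349_at. Synpo2 1376398_at averaged 6.66 ± 0.54 in ZD and 6.68 ± 0.18 in PF (SD, n = 4 each). Synpo2 1393528_at ranged over the 16 arrays from 0.62 to 4.88, which is far below the filter.

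The signals of the 8 genes varied together from rat to rat within groups. Over the 16 arrays, the deviations from the group mean had a correlation above 0 in 25 of 28 pairs of genes, with a median of 0.44. The highest was 0.86 between Synpo2 and Prkcd, Slc17a6 and Tcf7l2 stood at 0.81, and the lowest was -0.11 between Synpo2 and Lef1. All these values come from the same 16 RNA samples, so what makes up a sample and its array is shared by every pair. Pairs of other probe sets were not taken as a background, so this is not shown to be particular to the members. For probe sets of the same gene the median was lower, 0.26 over 13 pairs, with 0.69 for the tested Synpo2 pair, 0.26 for the Lef1 pair and 0.08 for the Shox2 pair. Most of these pairs were of Tcf7l2, at -0.37 to 0.63. They include probe sets of lower signal, so the 2 medians are not of like probe sets.

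The genes whose deviations were most like each member's, 3 per member over all named probe sets tested, had correlations of 0.82 to 0.93 over the 16 arrays. Vav3 was followed by Eif5a2 (0.93), Ptpn3 (0.86) and Osbpl3 (0.86), and Synpo2 by Pygl (0.92), Rtn4r (0.87) and Fam174a (0.87). Ntng1 was followed by Abi1 (0.91), Uqcrc2 (0.91) and Bivm (0.87), and Tcf7l2 by Taf3 (0.91), Rbfox1 (0.89) and Mef2a (0.87). The nearest to Slc17a6 was Trmt10c (0.89), to Prkcd Ramp3 (0.89), to Lef1 Pdha1 (0.87) and to Shox2 Lypla1 (0.84). Of the 24 places, 2 went to genes of the wider thalamus list described next, Ptpn3 and Ramp3.

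A wider list of 43 thalamus genes, also chosen with earlier results of these data known, was used for comparison. Of these, 36 were on the array and 30 were tested. None passed between ZD and PF, 20 of 30 were lower in ZD rats, and the median was -0.02, against 0.01 over all probe sets tested. Foxp2, a forkhead transcription factor, had the lowest p among them at -0.30 ± 0.10 (SE; adjusted p = 0.444 in limma), with no overlap between ZD and PF rats. Kcna2, a potassium channel subunit, stood at -0.26 ± 0.09, Ptpn3, a tyrosine phosphatase, at -0.20 ± 0.11, and Nos1ap, an adaptor of neuronal nitric oxide synthase, at 0.25 ± 0.11. Between ZR and ZRPF none passed either, 20 of 30 were higher in ZR rats and the median was 0.03. In ZRPF against PF 4 of 30 rose and 3 fell, where 9.5% of all probe sets were called higher and 6.15% lower and that split depends on the scaling, as given above. Of the 4 that rose, 1 had a PF mean under the filter, and without it 3 of 29 rose and 3 fell. Foxp2 was among those that fell (-0.49 ± 0.10, adjusted p = 0.00247 in limma).

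Genes of the members' own pathways were read from further lists, chosen in the same way. Of 19 Wnt and beta-catenin genes 14 were tested, none passed between ZD and PF, and 9 of 14 were higher in ZD rats, with Nkd1, an inhibitor of the pathway, at 0.25 ± 0.11 (SE). Without Tcf7l1, which had 1 of these 2 group means under the filter, 8 of 13 were higher. In ZRPF against PF, where 9.5% of all probe sets were called higher, 2 of the 14 rose. Bcl9, a beta-catenin coactivator, rose by 0.90 ± 0.12 (adjusted p = 6.14e-05 in limma). Axin2, a target and inhibitor of the pathway, differed by 1.67 ± 0.23 (adjusted p = 0.000117 in limma), with means of 8.27 in ZRPF and 6.61 in PF. Its PF mean lies under the filter, which it passed only through its ZR and ZRPF signals, so its place among the tested genes is not independent of the difference. Of 4 tested genes around the netrins, Lrrc4, Unc5c, Ntn1 and Lrrc4c, none passed in any comparison, and 2 of the 4 were lower in ZD rats. Lrrc4, with the lowest p between ZD and PF, was higher in ZD rats (0.47 ± 0.18, adjusted p = 0.533 in limma). Lrrc4c, the receptor of netrin-G1, stood at -0.05 ± 0.12 between ZD and PF. None of the 3 tested vesicular transporters passed, with Slc17a7 (VGLUT1) at 0.14 ± 0.15 between ZD and PF and Slc32a1 (the GABA transporter) at 0.08 ± 0.13.

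Of 6 tested protein kinase C genes none passed between ZD and PF, and 4 of the 6 were lower in ZD rats. Prkce, with the lowest p of them there, was higher in ZD rats (0.36 ± 0.12, SE; adjusted p = 0.474 in limma). Prkci, an atypical isoform, fell in ZRPF against PF (-0.26 ± 0.07, adjusted p = 0.0236 in limma). None of 6 tested Vav and Rac genes passed in these comparisons. Of 2 tested genes around the synaptopodins, Synpo stood at 0.28 ± 0.13 between ZD and PF without passing, and Actn4, an actinin, rose in ZRPF against PF (0.66 ± 0.09, adjusted p = 6.19e-05 in limma). Of 5 tested genes of the thalamic reticular nucleus, the GABAergic shell of the thalamus, 2 fell in ZRPF against PF, where 6.15% of all probe sets were called lower and that share depends on the scaling. They were Esrrg (-0.41 ± 0.11, SE; adjusted p = 0.0200 in limma), an orphan nuclear receptor, and Spp1 (-1.37 ± 0.32; adjusted p = 0.00713), which encodes osteopontin. None of the 3 tested habenula genes passed in these comparisons.

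Markers of other tissue moved with the groups in the same arrays. Their lists were likewise chosen with earlier results of these data known. In ZD against PF, 9 of 9 tested choroid plexus markers were higher in ZD rats (median 0.49), as were 10 of 10 of meninges and mural cells (median 0.34) and 7 of 8 of endothelium (median 0.19), though none passed. Of the choroid plexus markers 3 had a PF mean under the filter, and without them 6 of 6 were higher, with a median of 0.35. The summed signal of the choroid plexus markers was 9724 to 21996 in ZD rats, against 8817 to 10287 in PF rats. For meninges and mural cells it was 5097 to 8038 in ZD rats, against 4776 to 5596 in PF rats. Ttr, the transthyretin of choroid plexus cells, had log2 signals of 9.82 to 13.28 in ZD rats, against 7.71 to 10.37 in PF rats. None of the tested markers was at 0. Striatal markers were higher in ZD rats in 6 of 6 (median 0.22), those of cortex and hippocampus in 3 of 5, and those of oligodendrocytes in 2 of 7. The 2 tested markers each of midbrain (Slc6a3 and Th) and cerebellum (Calb1 and Neurod1) were lower. Calb1 also stands on the wider thalamus list, so it does not mark other tissue alone. General neuronal markers differed less, with 5 of 8 lower in ZD rats and a median of -0.04. The part of these tissues in the lower signals of the 8 genes was not tested. How much of those signals came from the thalamus rather than the rest of the sample was not tested either.

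Set beside each array's choroid plexus level, the mean deviation of the 8 thalamus genes was -0.26, -0.12, 0.07 and -0.03 in ZD rats 2, 3, 8 and 9, against 0.09, 0.12, 0.01 and 0.21 in PF rats 1, 2, 4 and 6. The choroid plexus deviations of the same arrays were 0.20, 0.62, 0.06 and -0.46 in ZD rats, against -0.70, -0.75, -0.44 and -0.77 in PF rats. All ZD choroid plexus values except that of ZD 9 lay above all PF values. In the longer experiment the 8 genes stood at 0.23, 0.03, 0.01 and -0.18 in ZR rats, against -0.04, -0.01, -0.10 and -0.03 in ZRPF rats. The choroid plexus deviations there were -0.73, 1.18, -0.55 and 0.76 in ZR rats, against -0.67, -0.19, 1.36 and 1.08 in ZRPF rats. Choroid plexus markers were thus uneven within both groups of that experiment. The deviations of the meningeal and mural markers were 0.35, 0.48, 0.67 and 0.01 in ZD rats, against -0.04, -0.08, 0.07 and -0.09 in PF rats. ZD 8 had the highest thalamus value of the ZD rats and also the highest meningeal value.

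Hypothalamic markers, the other large part of the sample, were higher in ZD than in PF for 7 of 13 tested (median 0.02). Without Nkx2-1, with a PF mean under the filter, 6 of 12 were higher there (median -0.005). In ZRPF against PF 11 of 13 were higher with a median of 0.30, and 4 of them rose, where 9.5% of all probe sets were called higher. One of the 4, Nkx2-1, had a PF mean of 7.10, under the filter, and without it 3 of 12 rose. All 9 tested choroid plexus markers were higher as well (median 0.84), of which 5 had an unadjusted p under 0.05 and 0 passed limma's adjusted threshold, and their summed signal was 8380 to 36892 in ZRPF rats, against 8817 to 10287 in PF rats. Of these markers 4 had a PF mean under the filter, and without them 5 of 5 were higher, with a median of 0.44. The summed signal of the hypothalamic markers was 44849 to 49638 in ZRPF rats, against 32064 to 37701 in PF rats. In the same comparison the summed signal of the 8 thalamus genes was 27882 to 31373 in ZRPF rats, against 29399 to 33699 in PF rats. The part of either tissue in the thalamus values was not tested.

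**Figure D5:**
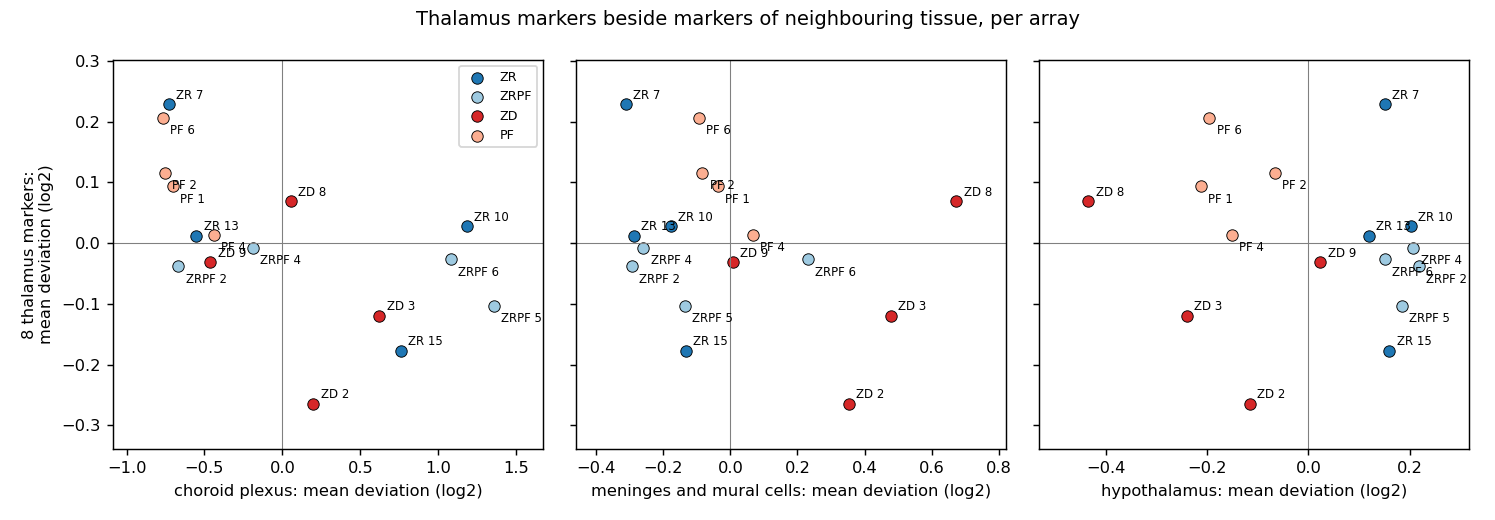
Each point is 1 array: the vertical axis gives the mean log2 deviation of the 8 thalamus genes from their mean over the 16 arrays, the horizontal axes the same for markers of choroid plexus, of meninges and mural cells, and of hypothalamus. ZD arrays lie at -0.26 to 0.07 on the vertical axis and PF arrays at 0.01 to 0.21; 3 of 4 ZD arrays lie to the right of all PF arrays for choroid plexus, and all ZR and ZRPF arrays lie to the right of all ZD and PF arrays for hypothalamus.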

How the data were processed

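Total RNA of each diencephalon was labelled from the 3 prime end and hybridised to 1 array per rat, per the labels' protocols. The authors deposited linear MAS5 intensities, per the submitters' processing notes, with a version that is not given in the sources used here. Each array had been scaled, as its trimmed mean (2% of probe sets off either end) was 500.13 to 500.15, and median signals ran from 156 to 172. Arrays of 1 group correlated at 0.974 to 0.987.

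Here, 57 control probe sets were left out, the intensities were put on a log2 scale as deposited, and the 15521 of 31042 probe sets at or above the median of the mean log2 signal were tested. limma 3.58.1 in R 4.3.3 fitted 1 mean per group over the 16 arrays, with an intensity trend, and two-sided p-values were adjusted by the Benjamini-Hochberg method. The fit was tested on simulated data. Gene names came from the platform annotation, in which 20826 probe sets have a single symbol, 436 have several and 9780 have none, and all 8 symbols stand unchanged in the current rat table. Promoters and positions are RefSeq's on GRCr8. The members and all lists were chosen with earlier results of these data known.

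From each list the text names up to 4 genes by lowest p between ZD and PF. For each member, the 3 named genes with the highest correlation of deviations were listed, and the text gives 1 to 3 of them. The numbers of rats were read as not pairing the samples. The deviations of PF and ZRPF rats with equal numbers correlated at 0.079, 0.020 and 0.035. Those with unequal numbers correlated at -0.096 to 0.078, and so few pairs cannot exclude a pairing. No such check was made between ZD and PF rats. Alternatives were quantile normalization, median centring, no filter or a stricter filter, an offset of 32, no intensity trend, array weights, the 8 arrays of a comparison alone, and each array left out.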

Additional observations from a re-analysis of the deposited data

Results flagged for a closer look

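Slc17a6 1368564_at in ZD rats had 1 array far from the rest. The signal of ZD 2 was 12.70 (log2), whereas ZD 3, 8 and 9 had 13.00 to 13.04. The gap was 0.868 of the group's range, above Dixon's 95% critical value. It was the 1 such case among 72 combinations of member probe set and group, and chance flags about 1 in 20. ZD 2 also had the lowest mean deviation of the 8 thalamus genes, -0.26.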

How the results depend on the processing

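Of 1072 values of member probe sets under the alternatives, 999 kept their direction and their side of the threshold, 56 changed direction with neither value past the threshold, 10 lost a call and 7 gained one. The causes were not tested. Between ZD and PF the 8 genes stayed lower in every alternative, with a median from -0.14 (without ZD 2) to -0.23 (median centring), and no member passed in any. The number of probe sets that passed over all was 0 to 3 with single arrays left out (3 without ZD 8). Between ZR and ZRPF it was 1, and 0 under quantile normalization, no filter, the stricter filter, no intensity trend and the 8 arrays alone, and 0 to 9 with single arrays left out (9 without ZRPF 6). For the interaction it was 0 to 1 with single arrays left out. Between ZRPF and PF it was 2430, and 1085 with a replicate block over the rats numbered 2, 4 and 6. The calls of Synpo2 1371679_at and of other members there also depended on the setting: Synpo2 was lost under quantile normalization (-0.28, adjusted p = 0.0612), no filter (0.0706), no intensity trend (0.0678), the 8 arrays alone (0.0567) and the replicate block (-0.35, 0.0539). Calls were gained for Ntng1 under median centring (-0.33), Shox2 1387349_at in the 8 arrays alone (adjusted p = 0.0120), and Tcf7l2 1392592_at under median centring (-0.42), array weights (-0.34) and without PF 1 (-0.43) or ZRPF 4 (-0.42). The stricter filter left 13 of the 15 probe sets.

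Directions that changed belonged to differences near 0. Under median centring Tcf7l2 1392592_at stood at -0.0079 in ZD against PF, Tcf7l2 1377156_at at 0.0071 and 1394497_at at 0.0021 in ZR against ZRPF, and in ZRPF against PF Shox2 1368825_at at -0.031, Lef1 1370138_at at -0.084, Tcf7l2 1377156_at at -0.018 and Prkcd at -0.025. Under quantile normalization Tcf7l2 1377156_at stood at 0.020 in ZR against ZRPF and Lef1 1370138_at at -0.021 in ZRPF against PF. Array weights gave 0.0065, 0.015 and -0.024 for Tcf7l2 1377156_at, Tcf7l2 1394497_at and Synpo2 1384160_at in ZR against ZRPF, and -0.0028 for Tcf7l2 1379815_at in the interaction. The replicate block gave 0.026 for Slc17a6 and -0.23 for Lef1 1370138_at. With single arrays left out, ZD against PF ran from -0.065 to 0.11 for Tcf7l2 1392592_at and from -0.14 to 0.30 for 1394497_at. ZR against ZRPF ran from -0.084 to 0.15 for Shox2 1368825_at, -0.17 to 0.23 for 1387349_at, -0.032 to 0.12 for Ntng1, -0.019 to 0.088 for Prkcd, -0.033 to 0.082 for Synpo2 1384160_at, -0.058 to 0.042 for Tcf7l2 1377156_at and -0.079 to 0.11 for 1394497_at. The interaction ran from -0.039 to 0.14 for Tcf7l2 1378048_at, -0.042 to 0.098 for 1379815_at, -0.039 to 0.14 for 1392592_at and -0.32 to 0.12 for 1394497_at. ZRPF against PF ran from -0.077 to 0.011 for Slc17a6, -0.012 to 0.19 for Shox2 1368825_at and -0.12 to 0.093 for Lef1 1370138_at. Signals below the filter were not tested.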
